A study of Mus musculus with 15 samples.

Results

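The nuclear genes of respiratory complex I (NADH:ubiquinone oxidoreductase) were taken as every gene whose symbol is Nduf followed by a, b, c, s or v and a number, with 1 probe per gene, the one with the highest mean hemibrain signal. This gave 37 genes with a probe out of 22571 genes tested on the array, and all 37 passed the filter on dim probes. They comprised 7 core subunits, 28 accessory subunits, and Ndufa4 and Ndufa4l2, which carry the family symbol but are not counted as complex I subunits today. By arm, 16 of the 35 subunits belong to the matrix arm and 19 to the membrane arm. Another 7 mouse symbols of the same form, among them Ndufb1, had no probe here and were not analysed. The symbol and the position in the complex, not the measured values, decided membership.

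The arrays came from left hemibrains of male C57BL/6j mice that received 1 of 3 diets of equal caloric content from 3 weeks of age for 24 weeks. The enriched diet (ERD) had omega-3 and omega-6 fatty acids at 7:1, the balanced diet (BLD) at 1:1 and the standard laboratory diet (STD) at 1:6, with 5 arrays per diet. Each array carried hemibrain RNA in Cy5 and, in Cy3, a universal mouse reference RNA pooled from 11 cell lines. Every log2 value below is therefore a ratio of hemibrain over reference unless a single channel is named. The titles give each array its own animal code and carry the word CONTROL on every array of all 3 diets. Nothing in the labels says that animals were pooled. The diet comparisons ask whether the ratio of omega-3 to omega-6 fatty acids in the food changes brain transcripts. Whole hemibrain mixes regions and cell types, so fewer cells of a type and less RNA per cell cannot be told apart.

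Complex I is the entry point of the mitochondrial respiratory chain. Its matrix arm takes electrons from NADH and passes them along iron-sulfur clusters to ubiquinone, and its membrane arm pumps protons. The core subunits of the matrix arm do the chemistry and are encoded in the nucleus, the core subunits of the membrane arm are encoded in mitochondrial DNA and have no symbol of this form, and the accessory subunits, all nuclear, surround the core and are needed for assembly and stability. Neurons draw most of their energy from this chain, and inherited loss of single subunits is known for causing Leigh syndrome, a degeneration of brainstem and basal ganglia.

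Across the arrays, 17720 to 31991 spots were well above background in Cy5, the fewest on ERD array 1, and no spot was saturated. Log ratios of any 2 arrays correlated at 0.739 to 0.931 across probes. The tissue label was checked against fixed marker lists, of which every gene with a probe was measured. The 10 neuron markers averaged log2 ratios of 4.62 ± 0.37 on ERD arrays, 4.97 ± 0.29 on BLD arrays and 4.88 ± 0.20 on STD arrays (SD, n = 5 each), and 9 of them were above background on all 15 arrays. For ERD minus STD, 8 of these 10 were lower, with -1.89 for Map2 and 1.38 for Snap25 (limma, adjusted p = 0.22 and 0.26). The 8 oligodendrocyte markers averaged 3.17 ± 0.25 on ERD arrays, 3.41 ± 0.10 on BLD arrays and 3.45 ± 0.06 on STD arrays. Of these 8, 7 were lower in ERD minus STD. The lowest ERD array of the oligodendrocyte list lay at 2.73, against a range of 3.36 to 3.5 on STD arrays. Astrocyte markers averaged 3.02, 3.04 and 2.98 on ERD, BLD and STD arrays, and microglia markers 1.495, 1.65 and 1.53. Endothelial markers averaged 0.95, 1.09 and 1.07 in the same order, and choroid plexus markers 1.27, 1.44 and 1.37. The close averages of the astrocyte list hide single changes, since 6 of its 8 genes were lower in ERD minus STD. Gfap had 1.04 and Slc1a2 -0.84 (limma, adjusted p = 0.12 and 0.33). The 6 red blood cell markers averaged 2.76 ± 0.11 on ERD arrays, 3.22 ± 0.50 on BLD arrays and 2.87 ± 0.18 on STD arrays. Their median change was 0.32 for BLD minus STD, with 5 of 6 higher, and -0.31 for ERD minus BLD, with 6 of 6 lower, and 0 of 6 passed the test in either, with 1 and 3 at an unadjusted p under 0.05. In the reference channel alone, which holds no hemibrain RNA but was normalized together with the hemibrain channel, their median BLD minus STD change was 0.64. The part of these markers in the diet values below was not tested. With Cy5 detection as a covariate, the median change of the 37 genes was -0.17 for ERD minus STD, -0.18 for BLD minus STD and 0.01 for ERD minus BLD. Without the covariate these medians were -0.14, -0.18 and 0.11. Over the 35 core and accessory subunits, leaving out Ndufa4 and Ndufa4l2, the medians without the covariate were -0.125, -0.108 and 0.108.

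No complex I gene passed the threshold of an adjusted p of 0.05 in any diet comparison (limma, Benjamini-Hochberg over all 22571 genes). The count was 0 of 37 for ERD against STD, where 0.217% of all genes were called, 0 of 37 for BLD against STD, where 0.00886% were called, and 0 of 37 for ERD against BLD, where 0% were called. The F test over the 3 diets also called 0 of 37, against 0.0487% of all genes, with 9 of 37 at an unadjusted p under 0.05, against 13.5%. At an unadjusted p under 0.05 in the same fit, 7 of 37 (18.9%) stood out in ERD against STD, 9 of 37 (24.3%) in BLD against STD and 4 of 37 (10.8%) in ERD against BLD, beside 14.6%, 10.8% and 10.4% of all genes. The 9 in BLD against STD were all accessory subunits, 8 with a negative and 1 with a positive change, beside 3.07% and 7.75% of all genes. The median standard error of an ERD minus STD log2 change was 0.16 over all genes.

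**Figure D1:**
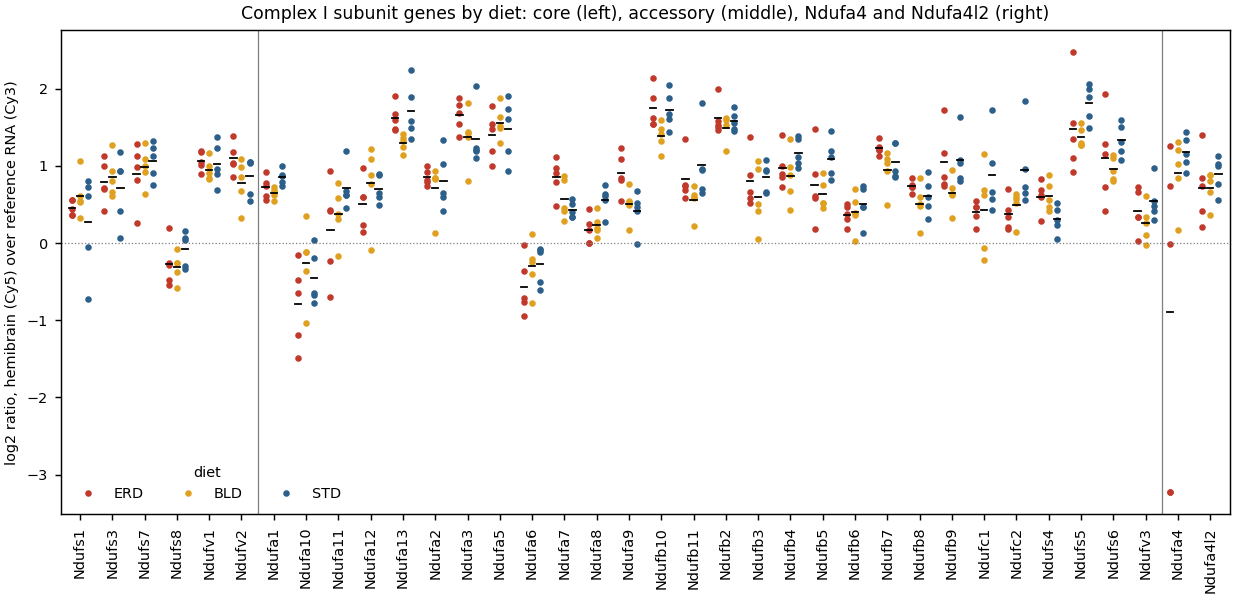
Log2 ratio of hemibrain over reference (vertical axis) for 36 of the 37 genes (horizontal axis), 1 point per array, coloured by diet with ERD left of BLD left of STD, and black dashes at the diet means. For nearly every gene the 3 diets overlap, and 2 ERD arrays of Ndufa4 lie at -3.23, far below its other arrays.

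Among the core subunits, 4 of 7 had a positive and 3 of 7 a negative ERD minus STD change, with a median of 0.04 beside 0.02 over all genes. The BLD minus STD median of the core was -0.08 with 5 of 7 negative, beside 0.05 over all genes, and 0.24 beside 0.18 with median centring of each array in place of loess. The ERD minus BLD median was -0.07, beside -0.04 over all genes, and -0.455 beside -0.20 with median centring. Of all genes, 47% had a negative change in ERD against STD, 39.4% in BLD against STD and 58.1% in ERD against BLD. After loess, none of these core medians exceeded the spread of the per-array core median within diets, whose SD was 0.10 on ERD arrays, 0.18 on BLD arrays and 0.18 on STD arrays.

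Ndufv1 binds the flavin that accepts electrons from NADH. Its log2 ratios were 1.19, 0.89, 1.05, 1.01 and 1.2 on ERD arrays, 0.85, 0.91, 0.84, 1.00 and 1.17 on BLD arrays, and 0.69, 0.90, 1.24, 0.96 and 1.37 on STD arrays. The 3 diets overlapped fully and the ERD minus STD change was 0.04 (95% interval -0.24 to 0.31). Ndufv2, its iron-sulfur partner in the NADH-oxidising module, had 1.39, 1.03, 0.86, 1.03 and 1.18 on ERD arrays, 0.32, 0.99, 1.09, 0.85 and 0.68 on BLD arrays, and 1.05, 1.04, 0.64, 1.05 and 0.54 on STD arrays. The ERD values of Ndufv2 lay mostly in the upper part of the range and BLD array 1 was the lowest of the 15, while the groups overlapped (ERD minus BLD 0.31, SE 0.16, adjusted p = 0.52).

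Ndufs1, which carries several of the iron-sulfur clusters, had 0.36, 0.56, 0.44, 0.36 and 0.56 on ERD arrays, 1.06, 0.33, 0.54, 0.54 and 0.61 on BLD arrays, and 0.81, 0.73, -0.05, 0.61 and -0.73 on STD arrays. The 5 ERD arrays lay close together, and STD arrays 3 and 5 were the lowest of all. Its largest change was BLD minus STD, 0.34 with an SE of 0.24 (adjusted p = 0.60).

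Ndufs7, which holds the terminal iron-sulfur cluster, had 1.13, 0.99, 1.28, 0.27 and 0.82 on ERD arrays, 1.30, 0.93, 1.09, 1.00 and 0.63 on BLD arrays, and 1.23, 0.91, 1.32, 1.13 and 0.75 on STD arrays. ERD array 4 was the lowest of the 15, below 0.63 on the next lowest array. Ndufs8, another iron-sulfur subunit, averaged -0.27 ± 0.29 on ERD arrays, -0.31 ± 0.18 on BLD arrays and -0.07 ± 0.23 on STD arrays (SD, n = 5 each). Ndufs3, a structural subunit of the matrix arm, averaged 0.79 ± 0.28 on ERD arrays, 0.86 ± 0.27 on BLD arrays and 0.71 ± 0.46 on STD arrays. None of these 3 genes differed between diets beyond the spread of the arrays (adjusted p of 0.56 or more in each comparison).

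The accessory subunits had a median ERD minus STD change of -0.13 with 19 of 28 negative, a BLD minus STD median of -0.23 with 21 of 28 negative, and an ERD minus BLD median of 0.13 with 10 of 28 negative, but with median centring the BLD minus STD median was 0.09, beside 0.18 over all genes, and the ERD minus BLD median -0.29, beside -0.20 over all genes. The accessory ERD minus STD median lay below that of all genes, 0.016, after loess. In the deposited log ratios it lay above that of all genes, which was -0.043. Both comparisons against STD share the same 5 STD arrays. The split by arm was added after seeing the data. By position, the membrane arm had a BLD minus STD median of -0.33 with 17 of 19 genes negative, and the matrix arm a median of -0.05 with 9 of 16 negative, beside 0.05 over all genes. Leaving out single arrays, the matrix arm median ranged from -0.07 to 0.05, the highest without BLD array 5. Median centring in place of loess moved the median of all genes to 0.18 and left 19.1% of them negative. The membrane arm median was then 0.01 with 8 of 19 negative, and the matrix arm median 0.25 with 1 of 16 negative. In the deposited log ratios, normalized by the scanner software, the membrane arm median was -0.30 with 18 of 19 negative and the matrix arm median 0.02 with 7 of 16 negative, beside a median of 0.00 over all genes. The membrane arm median thus lay below that of all genes under the 3 normalizations, while its sign was not negative with median centring. The red blood cell markers moved in the other direction in this comparison, by the median of 0.32 given above. The difference between arms was not tested.

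**Figure D2:**
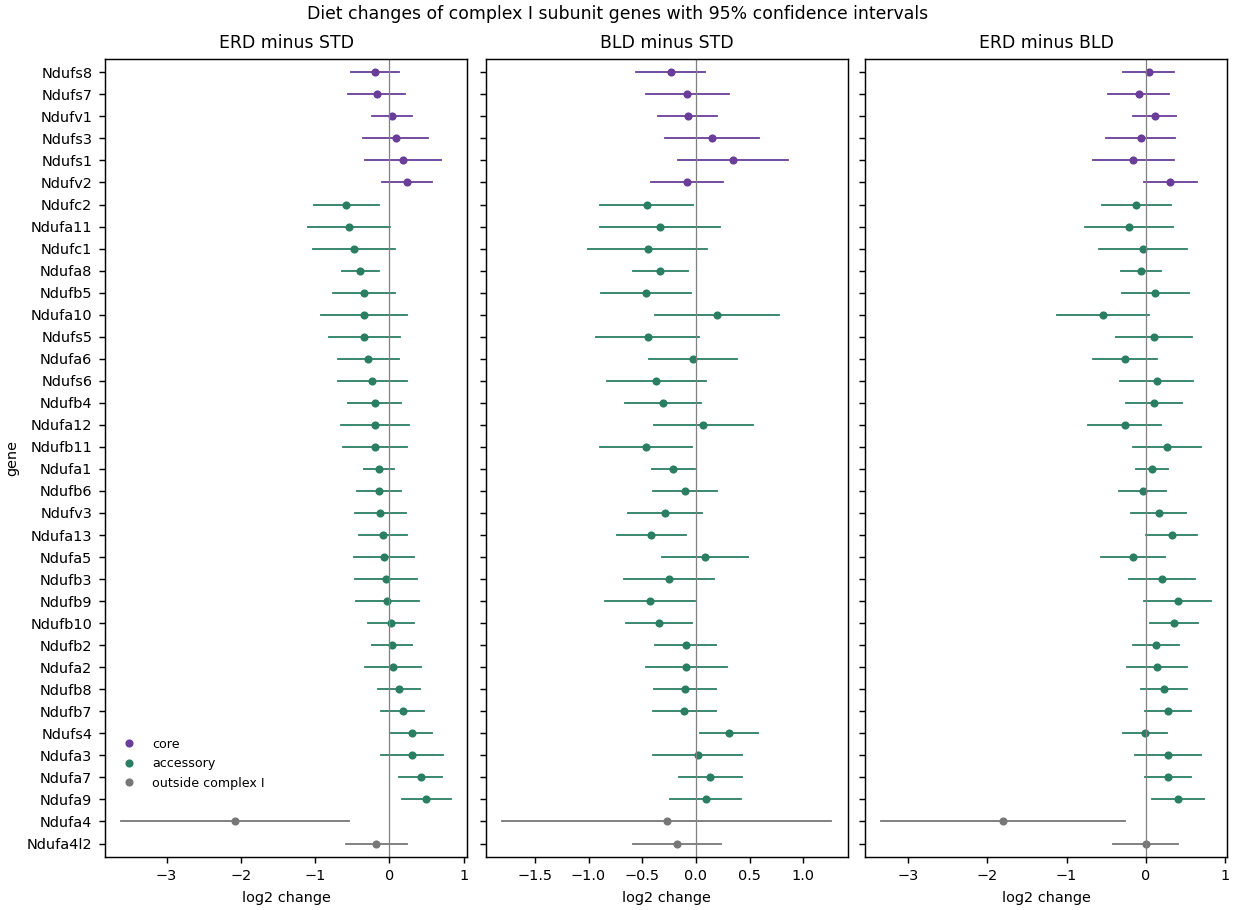
Log2 change with its 95% confidence interval (horizontal axes) for 36 of the 37 genes (rows), from the left ERD minus STD, BLD minus STD and ERD minus BLD, core subunits at the top, accessory subunits in the middle and Ndufa4 and Ndufa4l2 at the bottom, each class ordered by its ERD minus STD change. Most intervals include 0, the BLD minus STD points lie mainly left of 0 after loess (with median centring 8 of 19 membrane arm genes and 19.1% of all genes were below 0), and Ndufa4 has by far the widest interval.

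The per-array medians of the members' deviations from their own means show how the arrays spread. For the accessory subunits they were 0.15, 0.03, -0.05, -0.07 and -0.02 on ERD arrays, -0.07, -0.08, -0.04, -0.04 and -0.24 on BLD arrays, and 0.02, -0.04, 0.05, 0.10 and 0.32 on STD arrays. All 5 BLD arrays lay below 0, STD array 5 was the highest and STD array 2 fell inside the BLD range. For the core they were 0.14, 0.01, 0.04, -0.09 and -0.08 on ERD arrays, 0.31, -0.06, 0.11, 0.01 and -0.15 on BLD arrays, and 0.24, 0.12, 0.14, 0.15 and -0.23 on STD arrays. On STD array 5 the core thus had the lowest median of the 15 arrays and the accessory subunits the highest. The BLD minus STD median of the membrane arm was -0.24 without STD array 5 and -0.21 without BLD array 5.

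**Figure D3:**
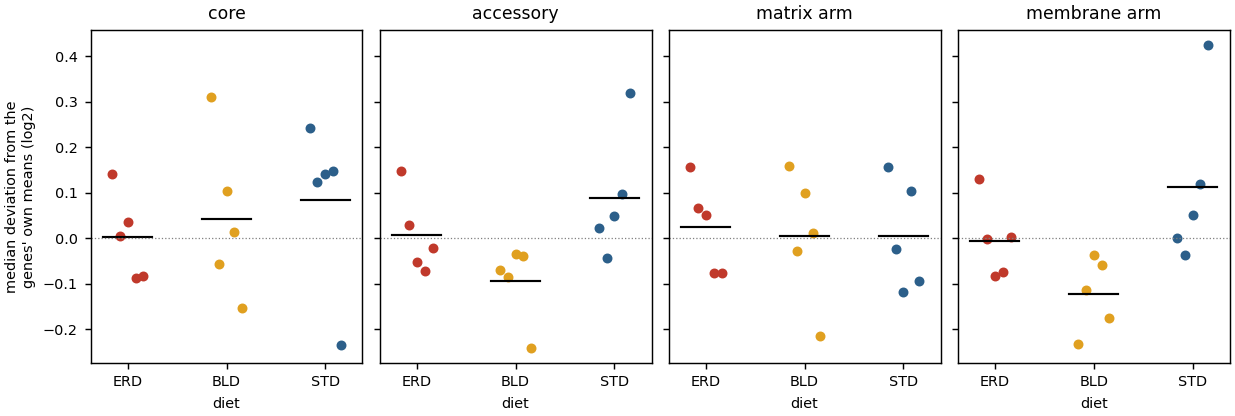
Median over the genes of a class of each gene's deviation from its own mean over 15 arrays (vertical axis, log2), 1 point per array, by diet (horizontal axis), with black lines at the diet means, for the core, the accessory subunits and the 2 arms. The membrane arm has all 5 BLD arrays below 0 and STD array 5 at 0.42, while the matrix arm means lie at 0.024 on ERD, 0.006 on BLD and 0.005 on STD arrays. These are values after loess, and with median centring the BLD minus STD median of the membrane arm was 0.01, beside 0.18 over all genes.

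Arrays shared slides, so the medians were also taken within slides that held both diets. Each diet had 1 array on such a slide, except for 2 BLD arrays on slide 1. For ERD minus STD, the median of the 37 genes was 0.08 on slide 4, -0.13 on slide 5 and -0.20 on slide 7, against -0.14 over all arrays. For BLD minus STD it was -0.37 on slide 7, the single slide with both diets, against -0.18 over all arrays. For ERD minus BLD it was -0.08 on slide 1, 0.15 on slide 3 and 0.07 on slide 7, against 0.11 over all arrays. The median of all genes was 0.053, -0.017 and -0.003 for ERD minus STD on slides 4, 5 and 7. It was 0.023 for BLD minus STD on slide 7, and -0.005, -0.065 and -0.038 for ERD minus BLD on slides 1, 3 and 7. With slide as a block in the fit, 0 of 37 genes were called in each diet comparison.

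The arrays were also scanned on 2 days, per the file headers. Day 2 held ERD array 4 and BLD arrays 2, 3 and 4 and no STD array, and day 1 held the other 11. The day 2 arrays were on slides 1 and 2, and no slide held arrays of both days. A difference between days therefore cannot be told apart from one between slides. With scan day as a block, 0 of 37 genes were called in each diet comparison, and the median of the 37 genes was -0.10 for ERD minus STD, -0.205 for BLD minus STD and 0.06 for ERD minus BLD. Within day 1 the same medians were -0.05, -0.25 and 0.09, and within day 2 the ERD minus BLD median was -0.06. The BLD minus STD median of the membrane arm was -0.30 with the block and -0.36 within day 1.

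Among accessory subunits of the matrix arm, Ndufa9 and Ndufa7 had the largest positive ERD changes. Ndufa9, whose protein has a dehydrogenase-like fold that binds NADPH, had log2 ratios of 1.09, 0.85, 0.54, 0.82 and 1.23 on ERD arrays, 0.77, 0.49, 0.54, 0.54 and 0.17 on BLD arrays, and -0.01, 0.46, 0.67, 0.51 and 0.41 on STD arrays. On 4 of 5 ERD arrays it lay above all STD arrays, and ERD array 3 lay within their range. The ERD minus STD change was 0.50 (SE 0.16, adjusted p = 0.18), and it was 0.38, 0.56 and 0.72 within slides 4, 5 and 7. The ERD minus BLD change was 0.41 (SE 0.16, adjusted p = 0.43), and -0.04 with median centring, beside -0.20 over all genes.

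Ndufa7 had 0.80, 0.48, 0.97, 0.91 and 1.12 on ERD arrays, 0.29, 0.81, 0.45, 0.86 and 0.42 on BLD arrays, and 0.34, 0.35, 0.50, 0.40 and 0.57 on STD arrays. ERD array 2 was the lone ERD array within the STD range. The ERD minus STD change was 0.42 (SE 0.14, adjusted p = 0.20), with 0.37 in the hemibrain channel alone and -0.05 in the reference channel alone. Ndufs4, whose loss causes a fatal encephalopathy in mice, averaged 0.60 ± 0.20 on ERD arrays, 0.61 ± 0.20 on BLD arrays and 0.31 ± 0.18 on STD arrays (SD, n = 5 each). It was the single member with an unadjusted p under 0.05 and a positive change in BLD against STD (0.31, SE 0.13, adjusted p = 0.44).

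Ndufa6, which docks the mitochondrial acyl carrier protein to the complex, had an ERD minus STD change of -0.29 (SE 0.19), and Ndufa12 had -0.20 (SE 0.22), both with adjusted p of 0.50 or more. The acyl carrier protein itself, Ndufab1, lies outside the symbol rule and had changes of 0.11 for ERD minus STD, -0.17 for BLD minus STD and 0.28 for ERD minus BLD (adjusted p = 0.77 for the first).

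Among accessory subunits of the membrane arm, Ndufa8 had the lowest ERD p of all members. This protein faces the intermembrane space and carries paired cysteine motifs. Its log2 ratios were 0.01, 0.00, 0.44, 0.25 and 0.17 on ERD arrays, 0.07, 0.28, 0.17, 0.20 and 0.46 on BLD arrays, and 0.61, 0.56, 0.27, 0.76 and 0.63 on STD arrays. On 4 of 5 STD arrays it lay above every ERD and BLD array, and STD array 3 lay among them. The change was -0.39 (SE 0.12, adjusted p = 0.18) for ERD minus STD and -0.33 (SE 0.12, adjusted p = 0.41) for BLD minus STD. For BLD minus STD the hemibrain channel alone gave -0.04 and the reference channel alone 0.29, the second of which was 0.04 with scan day as a block. The ratio change was -0.33 with that block.

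Ndufc2 had 0.34, 0.21, 0.43, 0.18 and 0.70 on ERD arrays, 0.15, 0.52, 0.57, 0.63 and 0.59 on BLD arrays, and 0.56, 0.73, 0.66, 0.96 and 1.85 on STD arrays. STD array 5 was the highest of all 15, and without it the change was -0.36 in place of -0.58 for ERD minus STD and -0.24 in place of -0.46 for BLD minus STD. Ndufc1 averaged 0.41 ± 0.14 on ERD arrays, 0.43 ± 0.57 on BLD arrays and 0.88 ± 0.52 on STD arrays, again with STD array 5 the highest at 1.72. Ndufa11, a membrane protein related to the import channel proteins of the inner membrane, averaged 0.17 ± 0.64 on ERD arrays, 0.38 ± 0.35 on BLD arrays and 0.71 ± 0.28 on STD arrays.

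The BLD minus STD changes were most negative for Ndufb5 (-0.46, SE 0.20), Ndufb11 (-0.46, SE 0.20), Ndufc2 (-0.46, SE 0.21), Ndufc1 (-0.45, SE 0.26), Ndufs5 (-0.45, SE 0.23) and Ndufb9 (-0.43, SE 0.20), all with adjusted p of 0.44 or more. Ndufb11, encoded on the X chromosome, had 0.22, 0.59, 0.74, 0.60 and 0.62 on BLD arrays, against 0.70, 0.65, 0.96, 0.95 and 1.81 on STD arrays. The change was -0.26 without STD array 5. Ndufb5 had 0.76, 0.53, 0.91, 0.45 and 0.52 on BLD arrays, against 1.12, 0.82, 1.19, 0.90 and 1.46 on STD arrays. A second probe of Ndufb5 had a change of the other sign, 0.33, and correlated with the tested probe at -0.26 over the 15 arrays.

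Ndufa1 and Ndufa13 were the members whose diet groups did not overlap. Ndufa1, a small X-linked membrane subunit needed for assembly, had 0.54, 0.66, 0.73, 0.69 and 0.63 on BLD arrays, against 0.75, 0.88, 0.80, 1.00 and 0.88 on STD arrays. All 5 BLD arrays were lower than all 5 STD arrays, as they were for 1 of 37 members and for 0.731% of all genes. The change was small, -0.21 (SE 0.10, adjusted p = 0.45), and Ndufa1 had the lowest spread within diets of the 37 genes, an SD of 0.11. Its ERD arrays, 0.55, 0.78, 0.61, 0.93 and 0.75, spanned both groups.

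Ndufa13, also known as GRIM-19, is a membrane arm subunit first described in cell death. It had 1.91, 1.59, 1.49, 1.47 and 1.67 on ERD arrays, against 1.14, 1.33, 1.25, 1.36 and 1.41 on BLD arrays. The 5 ERD arrays were all higher than the 5 BLD arrays, as they were for 1 of 37 members and for 0.35% of all genes (ERD minus BLD 0.33, SE 0.15, adjusted p = 0.48), and with median centring in place of loess the change was -0.14, beside -0.20 over all genes. The STD arrays, 1.35, 1.5, 1.89, 1.59 and 2.25, spanned both groups. Ndufb10, a twin-cysteine protein of the intermembrane space side, averaged 1.75 ± 0.26 on ERD arrays, 1.39 ± 0.17 on BLD arrays and 1.73 ± 0.24 on STD arrays (ERD minus BLD 0.36, SE 0.15, adjusted p = 0.45, and -0.10 with median centring). No member's ERD and STD arrays were fully apart, where 3.79% of all genes were.

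**Figure D4:**
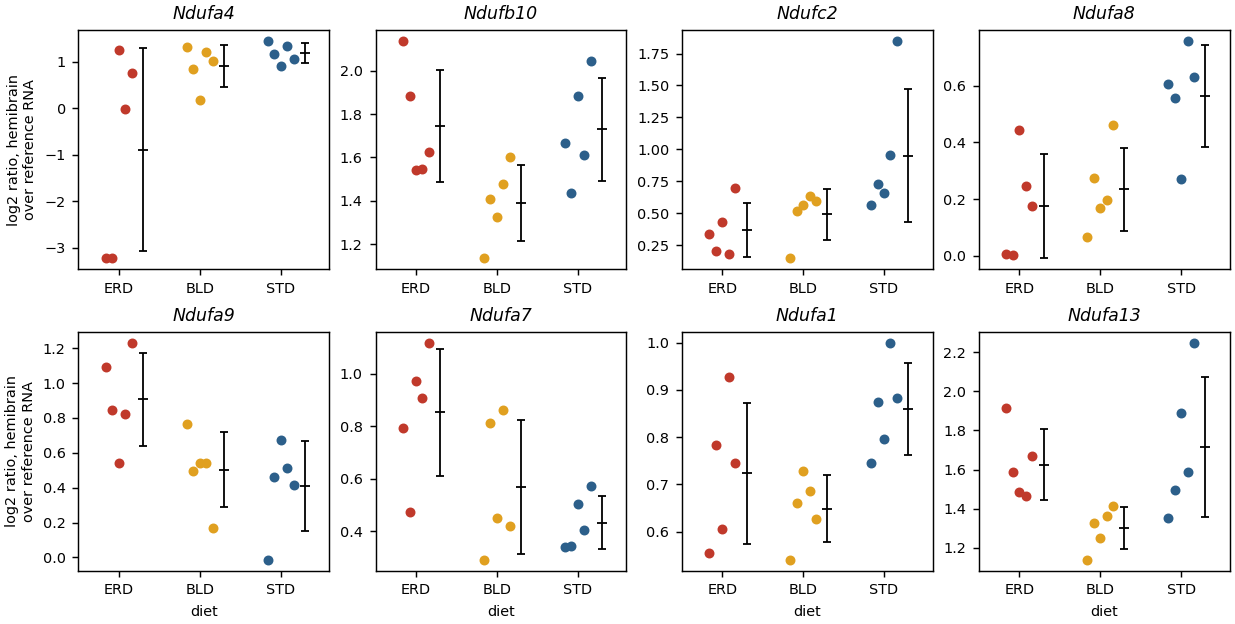
Log2 ratio of hemibrain over reference (vertical axes, each panel with its own scale) on the 5 arrays of each diet (horizontal axes, points) with mean and SD (black) for 8 of the genes described. Ndufa1 has its BLD arrays between 0.54 and 0.73 and its STD arrays between 0.75 and 1.00, Ndufa13 has its ERD arrays above its BLD arrays, and Ndufa4 has 2 ERD arrays at -3.23.

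Ndufa4 was named as a complex I subunit and later assigned, from work in human cells, to cytochrome c oxidase, complex IV of the chain. It had the largest single change of the family. Its log2 ratios were -3.23, -3.23, 1.26, -0.01 and 0.75 on ERD arrays, 1.31, 0.84, 0.17, 1.2 and 1.02 on BLD arrays, and 1.44, 1.16, 0.92, 1.34 and 1.05 on STD arrays. ERD arrays 1 and 2 lay more than 3 log2 units below every other array and the other ERD arrays reached the range of the BLD arrays or came near it. On ERD array 1 the probe was not well above background.

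In the hemibrain channel alone Ndufa4 stood at 8.41 and 8.61 on ERD arrays 1 and 2 and between 11.77 and 13.14 on the other 13 arrays, while the reference channel stood between 11.49 and 11.84 on all 15. The ERD minus STD change was -2.07 (SE 0.72, 95% interval -3.61 to -0.54, adjusted p = 0.22) and was -1.49 with either of those arrays left out. Its SD within diets, 1.29, lay at the 99.7th percentile of all genes. Ndufa4l2, a hypoxia-induced relative, had changes of -0.18 for ERD minus STD and -0.18 for BLD minus STD (SE 0.19 each).

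The channels were also tested alone. In Cy5 alone the median over the 37 genes was -0.15 for ERD minus STD, -0.27 for BLD minus STD and 0.12 for ERD minus BLD. In Cy3 alone, where all arrays hold the same reference RNA, the medians were -0.05, -0.06 and 0.03 for the same comparisons. Neither channel gave a call among the members, and 0.0532%, 0.0177% and 0% of all genes were called in Cy5 alone in those comparisons, and 0% in Cy3 alone in each. At an unadjusted p under 0.05, Cy3 alone picked 5 of 37 members in BLD against STD, beside 17.9% of all genes, and 0 of 37 in ERD against STD, beside 2.28%. The reference signal differed between the arrays of the scan days, which also lay on different slides. For 18 of 37 members the Cy3 values of the 4 arrays of day 2 lay outside the range of the 11 arrays of day 1, 2 of them above it and 16 below it, beside 28.4% of all genes. Ndufb2, a membrane arm subunit, had the largest reference difference between diets, 0.71 in Cy3 alone and 0.62 in Cy5 alone for BLD minus STD, with a ratio change of -0.09. Its Cy3 signal lay between 10.84 and 10.97 on day 2 and between 9.64 and 10.25 on day 1, and with scan day as a block its BLD minus STD change in Cy3 alone was 0.08. With that block, Cy3 alone picked 6 of 37 members in BLD against STD at an unadjusted p under 0.05, beside 10% of all genes. Ndufb2 had 14 usable values, since its spot on BLD array 1, a day 1 array, was marked as an outlier. Its BLD values were thus those of day 2 and of BLD array 5.

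**Figure D5:**
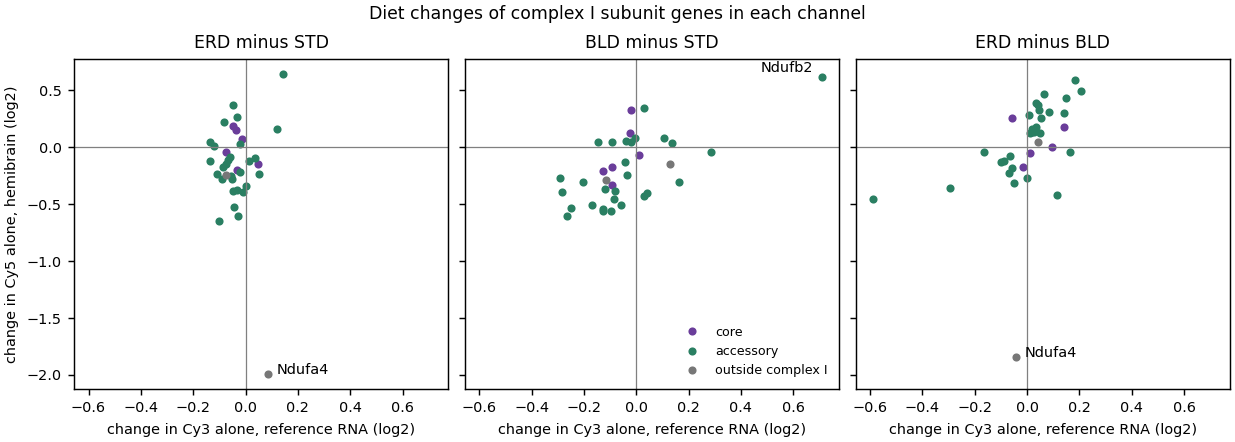
Change in the hemibrain channel alone (vertical axis, log2) against change in the reference channel alone (horizontal axis, log2) for 36 of the 37 genes, from the left ERD minus STD, BLD minus STD and ERD minus BLD. Most reference shifts are near 0, Ndufb2 lies above 0 in both channels in BLD minus STD (0.08 in the reference channel with scan day as a block), and Ndufa4 lies at -1.99 in ERD minus STD and -1.85 in ERD minus BLD in the hemibrain channel.

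Pairs of members correlated weakly from array to array. The median correlation between pairs of members over the 15 arrays, after removing diet means, was 0.06, with -0.03 among core and 0.11 among accessory subunits. It was 0.08 among 40 genes of complexes II to V and 0.01 among 77 genes of mitochondrial ribosomal proteins. Against the mean of the other members, Ndufb8 had the highest correlation (0.68) and Ndufs1 the lowest (-0.48). These values share arrays and normalization and are given as a description. The SD of a member within diets ranged from 0.11 for Ndufa1 to 1.29 for Ndufa4, with a median of 0.31.

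Of 40 genes of complexes II to V, 21 had a negative ERD minus STD change (median -0.03, beside 47% of all genes and a median of 0.02) and 28 a negative BLD minus STD change (median -0.09, beside 39.4% of all genes and a median of 0.05). In either comparison 0 of 40 passed the test, with 9 and 8 at an unadjusted p under 0.05, beside 14.6% and 10.8% of all genes. The lowest ERD p of that list were those of Uqcrc1, a core protein of complex III (0.80, adjusted p = 0.066), and Cox5b, a subunit of complex IV (-0.63, adjusted p = 0.16). Of 77 mitochondrial ribosomal protein genes, Mrpl38 passed in ERD against STD (0.54, SE 0.10, adjusted p = 0.047), with 40 of 77 positive and a median of 0.01. The 19 assembly factors of complex I had medians of 0.06 for ERD minus STD and 0.04 for BLD minus STD, with 10 and 12 of 19 positive. There were 0 calls, with 3 and 1 of them at an unadjusted p under 0.05. The 2 of lowest ERD p had opposite signs. Ndufaf1, which assembles the membrane arm, had -0.35 and -0.41, and Nubpl had 0.305 and -0.007 (adjusted p = 0.28 and 0.32 for ERD). Among 12 regulators of mitochondrial biogenesis 0 passed in either comparison, with 2 and 0 at an unadjusted p under 0.05, and Nrf1 and Tfb2m had ERD minus STD changes of 0.35 and 0.33 (adjusted p = 0.24 and 0.32).

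Set against the reference RNA, most members were higher in hemibrain after loess. Of the 37 genes, 32 were higher and 4 lower at an adjusted p under 0.05 (limma, mean of the 3 diets against 0), beside 50.8% higher and 35.7% lower of all genes, and the median log2 ratio was 0.75, beside 0.13 over all genes. Median centring in place of loess turned these ratios negative, to a median of -2.13 beside -1.29 over all genes, so the direction of hemibrain against reference depends on the dye normalization. The scanner software's own normalization gave 0.75, beside 0.18 over all genes. All arrays had the same dye orientation, so dye bias is not separated from these ratios. A log2 ratio of 1 or more was reached by 10 of 37 members, beside 17.5% of all genes.

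The highest ratios after loess were those of Ndufb10 (1.62, SE 0.06), Ndufb2 (1.56, SE 0.05), Ndufs5 (1.56, SE 0.09) and Ndufa13 (1.55, SE 0.06), all accessory subunits of the membrane arm. Among the 4 genes that were lower in hemibrain were Ndufa10 (-0.50, SE 0.11), Ndufa6 (-0.38, SE 0.08) and Ndufs8 (-0.22, SE 0.06), which with median centring were lower as well. Ndufa10 has a fold related to deoxyribonucleoside kinases. Ndufa4, at 0.40 with an SE of 0.30, was not called (adjusted p = 0.21). The 40 genes of complexes II to V had a median of 0.74, close to that of complex I, and the 77 mitochondrial ribosomal protein genes a median of -0.40, both after loess.

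Members that share a cellular machine can share promoter elements, and the 250 bases before the annotated start of 32 measured members, from the RefSeq promoter table for GRCm38.p6, were searched on both strands. A gene was counted once if any of its promoters held the motif. The motif of nuclear respiratory factor 1, written GCGCANGCG, was found in 6 of 32 members (18.8%) and in 5.86% of the 27025 genes with a promoter. The ETS motif CCGGAAG was found in 3 of 32 members, beside 7.83% of the genes with a promoter. The cyclic AMP response element TGACGTCA was found in 3 of 32, beside 1.77%, and the YY1 motif AAGATGGC in 0 of 32, beside 1.83%. A match describes letters, not a bound site. The promoters of 4 genes described above are shown, 3 with the respiratory factor motif and Ndufb11 without it, each read 5′ to 3′ on the gene's strand with matches of the 4 motifs in capitals, none of which overlaps a match of another motif.
Ndufa8, chr2:36049339-36049588, minus strand: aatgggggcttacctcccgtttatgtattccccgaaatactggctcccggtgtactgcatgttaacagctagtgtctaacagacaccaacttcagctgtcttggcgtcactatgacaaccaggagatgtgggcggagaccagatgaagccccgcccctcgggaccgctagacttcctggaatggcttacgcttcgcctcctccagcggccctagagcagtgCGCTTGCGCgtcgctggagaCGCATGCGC
Ndufa11, chr17:56717512-56717761, plus strand: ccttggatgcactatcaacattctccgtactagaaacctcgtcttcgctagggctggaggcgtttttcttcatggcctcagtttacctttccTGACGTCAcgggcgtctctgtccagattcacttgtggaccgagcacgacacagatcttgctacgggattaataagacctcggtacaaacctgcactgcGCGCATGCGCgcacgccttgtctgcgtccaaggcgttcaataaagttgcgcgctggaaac
Ndufs5, chr4:123718187-123718436, minus strand: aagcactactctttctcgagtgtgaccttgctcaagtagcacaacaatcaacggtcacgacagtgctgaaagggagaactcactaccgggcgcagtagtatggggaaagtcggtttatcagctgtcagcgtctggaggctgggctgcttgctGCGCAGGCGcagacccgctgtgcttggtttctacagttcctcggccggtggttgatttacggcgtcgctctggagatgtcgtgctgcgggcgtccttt
Ndufb11, chrX:20617620-20617869, minus strand: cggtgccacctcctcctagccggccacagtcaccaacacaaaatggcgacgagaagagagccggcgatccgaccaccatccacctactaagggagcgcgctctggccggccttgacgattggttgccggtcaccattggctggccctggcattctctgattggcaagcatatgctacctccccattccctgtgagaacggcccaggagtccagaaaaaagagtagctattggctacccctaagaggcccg

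In Ndufa8 the respiratory factor motif begins 29 and 9 bases before the start, in Ndufa11 60 bases before it with a cyclic AMP response element 158 bases before it, and in Ndufs5 98 bases before it. The 6 genes with the respiratory factor motif had BLD minus STD changes of -0.33 for Ndufa8, -0.34 for Ndufa11, -0.45 for Ndufs5, -0.37 for Ndufs6, -0.31 for Ndufb4 and 0.09 for Ndufa5. Their ERD minus STD changes were -0.39 for Ndufa8, -0.55 for Ndufa11, -0.34 for Ndufs5, -0.23 for Ndufs6, -0.20 for Ndufb4 and -0.08 for Ndufa5. None of these passed the test, Ndufs6, Ndufb4 and Ndufa5 are named here for the motif alone, and members without the motif, such as Ndufb11, had changes of like size. Ndufb4 has near-identical copies in the mouse genome, so its probe may read more than 1 gene.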

How the data were processed

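Hemibrain RNA (Cy5) and reference RNA (Cy3) were measured on 15 Agilent 2-colour arrays, 5 per diet, grouped by the diet label. The deposited scanner files hold spot intensity values per channel, per the file headers, quantified with Agilent Feature Extraction 11.5.1.1, while the submitters' processing notes name 10.7. The authors' value table equals the deposited log10 ratio of the scanner files (0 cells differed by more than 1e-06), with column medians of 0. Median intensities were background-corrected with normexp (offset 50) and loess-normalized within arrays in limma 3.58.1 under R 4.3.3, with control spots at weight 0 and outlier spots (0.574%) left out. A probe was kept if its Cy5 signal was well above background on 5 or more arrays and it had 8 or more values. Symbols came from a RefSeq table. Each symbol had 1 probe and every unnamed probe stood for itself, for 13777 named and 8794 unnamed genes. A single limma fit over 15 arrays (12 residual degrees of freedom) gave all tests, 2-sided, with Benjamini-Hochberg adjustment at 0.05. Single channels were taken after loess and Aquantile, which use both channels, so the values of 1 channel are not independent of the other. The number of arrays limits the precision. The fit was tested on simulated data. Replicate numbers follow accession order and pair nothing, and p-values measure the spread between these arrays.

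The members and gene lists were chosen with earlier results of these data known. Counts and medians cover all members, but the values of 1 gene are not reported here and it is left out of the plots of single genes. Genes named by rule were the core subunits, the 6 largest changes in each direction per comparison, and the 4 highest and lowest ratios to reference. Other members were named for a result seen in the data or for a trait given with them. Such results and traits were groups that did not overlap, a correlation, an outlying array, a second probe, a motif or, for Ndufa4l2, its place outside complex I. Those named from other lists were among up to 4 called genes, or else the 2 of lowest p, and not every such gene is named. The R package data.table (version 1.17.8) read the tables.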

Additional observations from a re-analysis of the deposited data

Results flagged for a closer look

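In groups of 5 arrays, an array was picked out where its gap to the nearest other array exceeded 0.71 of the group's range, which chance does in about 1 group of 20, and 125 groups were examined with 9 such arrays found. Ndufa2 on BLD array 1 stood at 0.13, against 0.84 to 0.94 on the other BLD arrays. Ndufc2 on BLD array 1 stood at 0.15, against 0.52 to 0.63. Ndufb11 had an outlying array in every diet, with 1.35 on ERD array 1 against 0.58 to 0.75 on the other ERD arrays, 0.22 on BLD array 1 against 0.59 to 0.74, and 1.81 on STD array 5 against 0.65 to 0.96. Ndufa3 on STD array 5 stood at 2.04, against 1.11 to 1.23 on the other STD arrays. Ndufb2 on ERD array 5 stood at 2.0, against 1.46 to 1.58. Of the list medians, the accessory subunits on BLD array 5 stood at -0.24, against -0.08 to -0.04 on the other BLD arrays, and the core on STD array 5 at -0.23, against 0.12 to 0.24. BLD array 1 and STD array 5 each account for 3 of the 9.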

How the results depend on the processing

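There were 42 other settings. In each diet comparison and the F test no member passed under any setting with a test, each array left out in turn included. No paired analysis was possible because the titles carry animal codes and no replicate numbers shared between diets.

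Leaving out single arrays, the all-member medians ranged from -0.168 to -0.05 (ERD minus STD), -0.207 to -0.132 (BLD minus STD), 0.011 to 0.128 (ERD minus BLD) and 0.722 to 0.77 (reference). The core medians ranged from -0.078 to 0.051, -0.158 to -0.027, -0.117 to 0.067 and 0.746 to 0.84, and the accessory medians from -0.172 to -0.082, -0.255 to -0.18, 0.076 to 0.169 and 0.722 to 0.765, in that order. Members called against the reference numbered 36 to 37.

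Median centring within arrays moved the median of all genes by 0.124 (BLD minus STD), -0.162 (ERD minus BLD) and -1.42 (reference). The medians of all, core and accessory members became 0.104, 0.239 and 0.091 for BLD minus STD, -0.307, -0.455 and -0.291 for ERD minus BLD, and -2.126, -2.09 and -2.152 against the reference. Against the reference the sign turned for Ndufa3 (-1.543), Ndufa4 (-2.347), Ndufa7 (-2.357), Ndufa8 (-2.183), Ndufa9 (-2.058), Ndufa11 (-2.126), Ndufa12 (-2.262), Ndufa13 (-1.687), Ndufb2 (-1.027), Ndufb5 (-1.938), Ndufb7 (-1.981), Ndufb9 (-2.191), Ndufb10 (-1.431), Ndufb11 (-2.179), Ndufc1 (-2.308), Ndufc2 (-2.275), Ndufs1 (-2.315), Ndufs3 (-2.09), Ndufs4 (-2.187), Ndufs5 (-1.389), Ndufs7 (-2.02), Ndufv1 (-2.0) and Ndufv2 (-1.896). It also turned for ERD minus BLD of Ndufa9 (-0.044), Ndufa13 (-0.143) and Ndufb10 (-0.096), and for BLD minus STD of Ndufb10 (0.013). These turns cover only genes named by rule whose value had an unadjusted p under 0.05 (limma) after loess or with median centring. Other members turned too, as the counts of negative changes in the 2 arms given above show. The cause was not tested.

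In the deposited log ratios the ERD minus STD medians were 0.003 for all and -0.022 for accessory members, beside -0.043 over all genes. Against the reference, no background correction gave 0.863 and 0.86 and a normexp offset of 1 gave 0.889 and 0.873 for all and accessory members. Detection as a covariate gave an ERD minus BLD median of 0.006, and slide as a fixed block a core ERD minus STD median of -0.15. Within slide 4 the ERD minus STD medians were 0.084 (all) and 0.094 (accessory), and the core had -0.189 within slide 5 and -0.236 within slide 7. Within slide 7 the BLD minus STD medians were -0.366, -0.278 (core) and -0.373 (accessory). The ERD minus BLD medians were -0.076 and -0.052 (accessory) within slide 1, and 0.253 (accessory) within slide 3. Within scan days, a setting added after seeing the data, they were 0.266 (accessory) on day 1, and -0.056 and -0.005 (accessory) on day 2. Signs within slides were compared for genes named by rule with an unadjusted p under 0.05 (limma) over all arrays. Among these the sign turned for Ndufs4 (-0.238) in ERD minus STD on slide 5 and for Ndufb9 (0.141) in BLD minus STD on slide 7. Members with a higher p also turned within slides.

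In Cy3 alone, which holds no hemibrain RNA but was normalized together with Cy5, the BLD minus STD medians were -0.058 (all) and -0.07 (accessory). Among changes at an unadjusted p under 0.05 in the ratio or in Cy3 alone, the sign in Cy3 differed from that of the ratio for ERD minus STD of Ndufa4 (0.085), Ndufa7 (-0.046) and Ndufs4 (-0.034), for BLD minus STD of Ndufa8 (0.287), Ndufb2 (0.709), Ndufb5 (0.163) and Ndufc2 (0.029), and for ERD minus BLD of Ndufb2 (-0.589) and Ndufb5 (-0.163). Ndufb2 had 0.616 for BLD minus STD in Cy5 alone, and -0.047 for ERD minus STD in Cy3 with scan day as a block, also added after seeing the data. The medians of the 2 arms and the counts of negative changes were added after seeing the data.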

Other observations

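Second probes existed for 6 members. Over the 15 arrays they correlated with the tested probe at 0.46 for Ndufb4, 0.34 for Ndufb6, 0.21 for Ndufa5, 0.16 for Ndufv3, 0.12 for Ndufb11 and -0.26 for Ndufb5. The second probes of Ndufb4 and Ndufb6 had BLD minus STD changes of -0.56 and -0.52. The second probe of Ndufv3 had a hemibrain over reference ratio of -1.02, against 0.41 for the tested probe. The second probe of Ndufb11 was above background on 5 arrays.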
